A study of Rattus norvegicus with 8 samples.

Results

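The genes Mrap, Th, Dbh and Chga, known for their work in hormone-making cells of the adrenal gland, were followed in fetal rat testis after exposure of the dam to dibutyl phthalate (DBP), a plasticizer. They were found through the array platform's gene annotation as the probe sets that carry that gene symbol and no other, which gave 1 probe set for each, 4 of 31042 probe sets and 4 of 14217 genes. The genes had been chosen by their log2 difference between the DBP and vehicle arrays in earlier work on the same 8 arrays. Their differences between the groups are therefore given as a description, without a test.

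Testis RNA of male Fischer 344 fetuses, taken at gestational day 20, was measured on 8 Affymetrix arrays for rat transcripts, 1 per sample. The dams of the 4 DBP samples had been given 50 mg/kg of DBP in corn oil by gavage every day of gestation from day 12 to day 20, and the dams of the 4 vehicle samples the same volume of corn oil, 1 ml/kg. Tissue was taken 6 h after the last dose, and the comparison asked which testis transcripts differ at this dose. Values are log2 signals made by the authors with RMA, a method that combines the probes of a set into 1 value per array, so that a difference of 1 is a 2-fold change. The labels do not say whether samples came from separate dams or how many fetuses each holds, so errors and p-values cover the spread among these samples alone, which may be technical, and with 4 arrays a group their precision is limited. Whole testes were measured, so fewer cells of a type and less RNA per cell cannot be told apart.

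Th encodes tyrosine hydroxylase, which starts catecholamine synthesis, and Dbh encodes dopamine beta-hydroxylase, which turns dopamine into noradrenaline inside secretory granules. Chga encodes chromogranin A, the main soluble protein of those granules in chromaffin cells of the adrenal medulla and in many other neuroendocrine cells and neurons. Mrap encodes the melanocortin 2 receptor accessory protein, which brings the ACTH receptor to the surface of adrenal cortex cells and is also made in fat cells. The cortex and the medulla are different cell types, and fetal Leydig cells share part of the cortex's steroid enzymes.

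The promoters of Th and Dbh are shown, whose transcription is known to respond to cyclic AMP. They are the 2 of the 4 genes matched in the promoter table, and those of Mrap and Chga were not analysed here. Each sequence runs from 250 bases before to 50 bases after the gene's start in RefSeq's GRCr8 build, at chr1:207508169-207508468 on the minus strand for Th and chr3:30886078-30886377 on the plus strand for Dbh. Capitals mark matches, on either strand, to TGACG, the 5-base core of the cyclic AMP response element, and to ATTA, the core bound by homeodomain factors such as Phox2a.
Th: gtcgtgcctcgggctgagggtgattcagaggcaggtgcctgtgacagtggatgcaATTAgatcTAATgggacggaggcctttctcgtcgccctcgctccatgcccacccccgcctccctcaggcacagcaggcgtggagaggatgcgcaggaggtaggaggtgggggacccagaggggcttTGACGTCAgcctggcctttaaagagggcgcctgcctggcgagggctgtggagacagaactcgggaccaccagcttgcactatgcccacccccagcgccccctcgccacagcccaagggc
Dbh: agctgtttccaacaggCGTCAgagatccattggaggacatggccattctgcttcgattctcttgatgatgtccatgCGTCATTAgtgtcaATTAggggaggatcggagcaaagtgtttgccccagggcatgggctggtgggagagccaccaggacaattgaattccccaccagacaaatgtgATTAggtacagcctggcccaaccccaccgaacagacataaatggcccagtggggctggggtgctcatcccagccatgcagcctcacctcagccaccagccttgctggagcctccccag
The Th promoter held 1 whole element, TGACGTCA, from 69 to 62 bases before the start. This palindrome is read as the core on both strands, so the 2 core matches of Th lie in the same place. It was present in 1.83% of the 33469 promoters of the same length. The Dbh promoter held no whole element and 2 cores, at 234 to 230 and at 174 to 170 bases before the start, the second sharing a base with an ATTA match. A core occurred in 21.2% of all promoters. ATTA matched 2 times in Th and 3 times in Dbh, and in 60.6% of all promoters. The AP-1 site TGANTCA, also sought on both strands, matched 1 time in Th, 0 times in Dbh, and in 7.33% of all promoters. Among the genes of catecholamine synthesis and transport, 14 of 18 had a promoter in the table and 2 of these held the whole element, Th and Slc18a2. Among 21 genes of granule proteins 17 had one, and Scg2, Sst and Vgf, 3 in all, held the element. These letter matches are a description of the sequence and not of binding.

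Th signal was somewhat higher on every DBP array than on any vehicle array. It was 6.23, 6.31, 6.49 and 6.32 on DBP arrays 1 to 4, against 6.02, 5.99, 6.09 and 6.19 on vehicle arrays 1 to 4. The groups did not overlap, but the lowest DBP array and the highest vehicle array were only 0.04 apart. The means were 6.34 ± 0.11 for DBP and 6.07 ± 0.089 for vehicle (SD, n = 4 each), a difference of 0.27 ± 0.072 on the log2 scale (SE), or 1.20-fold.

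Dbh signal overlapped between the groups. It was 4.75, 4.94, 4.79 and 5.08 on DBP arrays 1 to 4, against 4.80, 4.54, 4.65 and 4.69 on vehicle arrays 1 to 4. DBP arrays 2 and 4 lay above every vehicle array, while DBP arrays 1 and 3 lay below vehicle array 1. The means were 4.89 ± 0.15 for DBP and 4.67 ± 0.11 for vehicle (SD, n = 4 each), a difference of 0.22 ± 0.086 (SE, log2), or 1.16-fold. The array with the highest Dbh signal, DBP array 4, was not that with the highest Th signal, DBP array 3. The deviations of Th and Dbh from their group means had a Pearson correlation of 0.01 over the 8 arrays, a description of arrays that share 1 normalization.

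Chga, the granule protein, went the other way from both enzymes. Its signal was 6.04, 5.62, 6.33 and 6.11 on DBP arrays 1 to 4, against 6.44, 6.32, 6.31 and 6.37 on vehicle arrays 1 to 4. The vehicle arrays lay within 0.13 of each other and the DBP arrays spread over 0.71, with DBP array 3 inside the vehicle range and DBP array 2 far below it. The means were 6.03 ± 0.30 for DBP and 6.36 ± 0.059 for vehicle (SD, n = 4 each), a difference of -0.34 ± 0.13 (SE, log2), or 1.26-fold lower. Without DBP array 2 the difference was -0.20, and without DBP array 3 it was -0.44, so its size depended on single arrays.

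Mrap had the largest difference of the 4 genes and the only wide gap between groups. Its signal was 7.0, 6.99, 7.30 and 6.72 on DBP arrays 1 to 4, against 7.61, 7.67, 7.66 and 7.49 on vehicle arrays 1 to 4. Every DBP array lay below every vehicle array, by at least 0.19. The means were 7.0 ± 0.24 for DBP and 7.61 ± 0.083 for vehicle (SD, n = 4 each), a difference of -0.61 ± 0.11 (SE, log2), or 1.52-fold lower. DBP array 4 had the lowest Mrap and the highest Dbh signal, and within the groups these genes had a correlation of -0.68 over 8 arrays, against 0.29 for Mrap and Chga and 0.31 for Mrap and Th.

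In the limma fit of all probe sets, 1.07% were called (Benjamini-Hochberg adjusted p under 0.05). Whether the 4 probe sets were among them is not given, since that contrast chose the genes. The groups did not overlap for Th and Mrap, where they did not overlap for 10.9% of all probe sets. This too comes from the contrast that chose the genes, and nothing is read from it. Ordered by signed difference the 4 genes ran from Mrap through Chga and Dbh to Th. Dbh and Th were 0.22 and 0.27, a gap smaller than either SE.

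**Figure D1:**
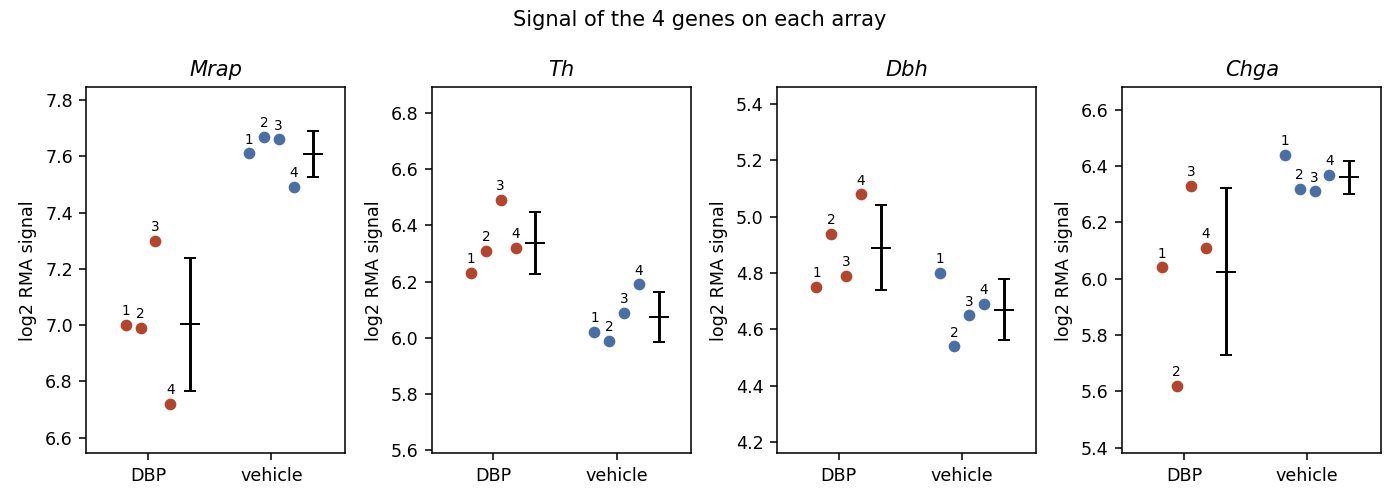
Log2 RMA signal (vertical axes, each spanning the same 1.3 log2 units) of Mrap, Th, Dbh and Chga on the 4 DBP and 4 vehicle arrays, with the replicate number above each point and the mean with SD (n = 4) beside each group. Mrap separates by 0.19 and Th by 0.04, while Dbh and Chga overlap.

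DBP arrays 3 and 4 stood apart from the other arrays. The poly-A spike-ins are bacterial RNAs put into each sample before labelling, and their mean log2 signal was 4.75 and 4.73 on these arrays, against 7.24 and 6.79 on DBP arrays 1 and 2 and 6.54 to 6.85 on the vehicle arrays. The SD of all log2 values was 2.19 and 2.18 on DBP arrays 3 and 4, against 2.23 to 2.25 on the other 6. RNA integrity numbers lay between 8.6 and 8.8 and array medians between 6.08 and 6.13. With this narrower scale went a shift that depended on brightness. Probe sets with a mean log2 signal between 4 and 5 had a median difference from vehicle of 0.11 on DBP arrays 3 and 4 and of 0.02 on DBP arrays 1 and 2, and those between 7 and 8 had -0.08 and 0.00.

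The 4 genes differed in how these pairs of arrays compared. Mrap differed from vehicle by -0.61 on DBP arrays 1 and 2 and by -0.60 on DBP arrays 3 and 4, nearly the same in both pairs. Th differed by 0.20 on DBP arrays 1 and 2 and by 0.33 on DBP arrays 3 and 4. Probe sets within 0.25 of its mean signal had a median difference of 0.02 on DBP arrays 1 and 2 and of -0.02 on DBP arrays 3 and 4. Dbh, the dimmest of the 4, differed by 0.18 on DBP arrays 1 and 2 and by 0.27 on DBP arrays 3 and 4, beside medians of 0.03 and 0.10 for probe sets of its brightness. Chga differed by -0.53 on DBP arrays 1 and 2 but by -0.14 on DBP arrays 3 and 4. Each of the 4 genes kept its sign in both pairs.

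**Figure D2:**
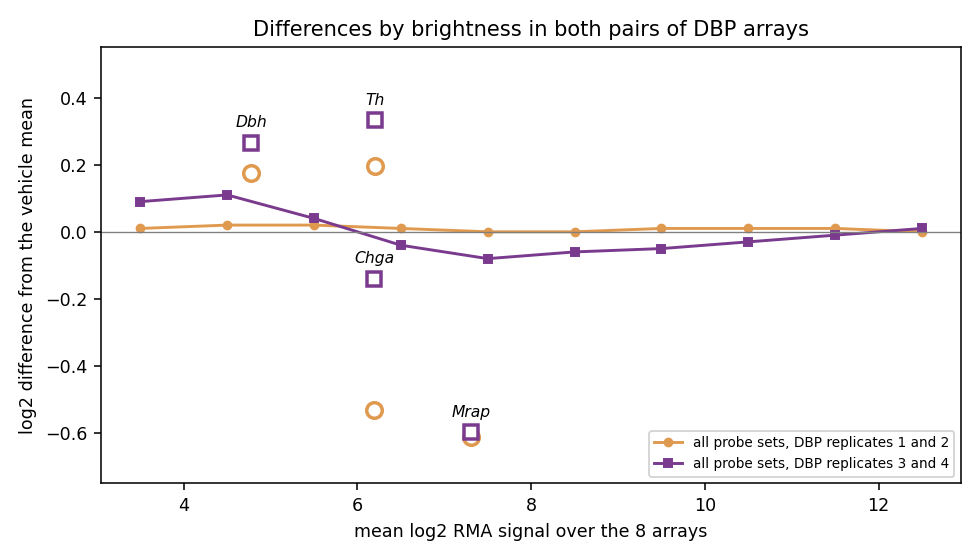
Log2 difference from the vehicle mean (vertical axis) against the mean log2 signal over 8 arrays (horizontal axis). Lines give the median of all probe sets in steps of 1 log2 unit, open symbols the 4 genes, with circles for DBP replicates 1 and 2 and squares for DBP replicates 3 and 4. Mrap lies near -0.6 in both pairs of arrays, and Chga at -0.53 and -0.14.

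The other enzymes and transporters of the catecholamine pathway were mostly close to their vehicle signals. Of 13 measured genes besides Th and Dbh, 0 passed limma's test in either direction at an adjusted p under 0.05, where 1.22% of all genes passed, 0.598% higher and 0.626% lower. At an unadjusted p under 0.05, 3 were higher and 0 lower, where 11.3% and 7.84% of all genes were. The median log2 difference of the 13 was 0.06, against 0.02 over all genes. Ddc, the decarboxylase that acts between Th and Dbh, had 7.77 ± 0.16 in the DBP group and 7.87 ± 0.046 in the vehicle group (SD, n = 4 each), a difference of -0.11. The dimmer probe set of Ddc differed by 0.05. Pnmt, which makes adrenaline from noradrenaline and marks adrenaline cells, differed by 0.06 and Gch1, which makes the cofactor of Th, by 0.13. Slc18a1, the granule transporter of chromaffin cells, differed by 0.07.

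The smallest p-values in that pathway belonged to a regulator and to transporters. Gchfr, the feedback regulator of Gch1, had 6.02, 6.0, 6.18 and 6.20 on DBP arrays 1 to 4, against 5.78, 5.87, 5.73 and 5.66 on vehicle arrays 1 to 4. The groups did not overlap, as was so for 12.9% of all genes, and the difference of 0.34 ± 0.071 (SE) missed limma's threshold (adjusted p = 0.056). Slc6a2, the noradrenaline transporter of the cell surface, differed by 0.31 (adjusted p = 0.102), with 4.22, 4.19, 4.27 and 4.41 on DBP arrays 1 to 4, against 3.90, 3.82, 4.09 and 4.06 on vehicle arrays 1 to 4. Slc18a2, the second granule transporter, differed by 0.25 at its brightest probe set (adjusted p = 0.235), and its 2 dimmer probe sets differed by -0.03 and -0.05.

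Among 19 measured genes of dense-core granules besides Chga, 18 had a difference above 0. The share above 0 over all genes was not counted. Most genes of other lists were also above 0: 12 of 13 for fat cells and 5 of 6 for the melanocortin system. It was 10 of 12 for sympathetic and chromaffin factors, 13 of 17 for neurons and Schwann cells, and 12 of 17 for photoreceptors. Catecholamine and cortex genes each had 10 of 13, and Leydig cell genes 6 of 12. The count is thus not particular to granule genes. The median difference was 0.02 over all genes and 0.07 over probe sets with a mean log2 signal between 4 and 5. Of the 19 granule genes, 1 passed limma's test as higher and 0 as lower, where 0.598% and 0.626% of all genes did. Chga was chosen by its difference and these 19 genes were not, so its direction is not set against theirs. The median difference of the 19 was 0.14, being 0.07 on DBP arrays 1 and 2 and 0.19 on DBP arrays 3 and 4. Their median brightness was 4.58, where the shift described above was largest. Cadps, which primes granules for release, rose to 4.56, 4.78, 4.53 and 4.71 on DBP arrays 1 to 4, against 3.96, 3.77, 4.06 and 4.03 on vehicle arrays 1 to 4. The groups did not overlap, and the log2 difference was 0.69 ± 0.083 (SE; adjusted p = 0.00517, limma), or 1.61-fold. The dimmer probe set of Cadps differed by 0.11 and was not called (adjusted p = 0.438). Its brighter probe set was itself dim, with a mean log2 signal of 4.3. Npy, a peptide stored with noradrenaline, differed by 0.29 (adjusted p = 0.124) and Pcsk1n, an inhibitor of prohormone convertase, by 0.26 (adjusted p = 0.213). The other granins Chgb and Scg2 differed by 0.19 and 0.10 and the convertase Pcsk2 by 0.04, none past the threshold. At an unadjusted p under 0.05, 4 of the 19 were higher and 0 lower, where 11.3% and 7.84% of all genes were.

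The mean log2 signal of the 19 granule genes was 5.55, 5.60, 5.62 and 5.77 on DBP arrays 1 to 4, against 5.41, 5.49, 5.46 and 5.47 on vehicle arrays 1 to 4. The highest array, DBP array 4, was also the highest for Dbh. On that array Resp18, a granule protein of endocrine cells named here after its values were seen, reached 6.42, against 4.04 to 4.63 on the other 3 DBP arrays and 4.22 to 4.40 on the vehicle arrays. Slc18a2 was at 5.52 there, against 5.05 to 5.12 on the other 3 DBP arrays. The mean of the 19 genes includes Resp18 itself. Other genes of these lists were at their lowest DBP value on that array, among them Scg2 (4.13), Scg3 (7.63), Scg5 (5.10) and Ddc (7.54). They too were picked after their values were seen, and list genes went both ways there. The part of any other tissue in that sample was not tested.

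Of 12 measured transcription factors and receptors of sympathetic and chromaffin cells, 1 fell and 0 rose, where 0.626% and 0.598% of all genes did. Ngfr, the low-affinity receptor of nerve growth factor, had 7.67, 7.81, 7.80 and 7.71 on DBP arrays 1 to 4, against 8.17, 8.25, 8.13 and 8.19 on vehicle arrays 1 to 4. The groups lay 0.32 apart, and the log2 difference was -0.44 ± 0.058 (SE; adjusted p = 0.00858, limma). Ngfr is also made outside the nervous system, so it does not mark these cells alone. Isl1 differed by 0.26 (adjusted p = 0.0906) and Hand2 by 0.22 (adjusted p = 0.136), and Phox2a, a factor that drives Dbh, by 0.07 (adjusted p = 0.696). At an unadjusted p under 0.05, 2 were higher and 1 lower, where 11.3% and 7.84% of all genes were, and the median of the 12 was 0.11.

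In the melanocortin system, in which Mrap acts, the other genes differed from vehicle by -0.075 to 0.195. Of the 6 measured, 0 passed limma's test, where 1.22% of all genes did. At an unadjusted p under 0.05, 2 were higher and 0 lower, where 11.3% and 7.84% of all genes were. The 6 had a median difference of 0.07 and a median brightness of 4.34. The ACTH receptor gene itself, Mc2r, was not analysed here. Mrap2, the relative of Mrap that acts with other melanocortin receptors, had 4.61 in the DBP group and 4.59 in the vehicle group, a difference of 0.03 (adjusted p = 0.882). Mc5r differed by 0.20 (adjusted p = 0.155), Pomc, the precursor of ACTH, by 0.18 (adjusted p = 0.222) and Asip, an antagonist of the receptors, by 0.12 (adjusted p = 0.36).

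Among 13 measured genes of the adrenal cortex, 1 rose and 0 fell, where 0.598% and 0.626% of all genes did. This list shares 4 genes with the Leydig cell list below, Cyp11a1, Hsd3b1, Nr5a1 and Star. The rest of it is not thereby particular to the adrenal cortex. Akr1b7, an aldo-keto reductase that handles by-products of steroid synthesis and is known from mouse adrenal, had 4.92, 4.72, 4.79 and 4.69 on DBP arrays 1 to 4, against 4.28, 4.18, 4.24 and 4.25 on vehicle arrays 1 to 4. The groups lay 0.41 apart, and the log2 difference was 0.54 ± 0.064 (SE; adjusted p = 0.0049, limma), or 1.46-fold. The signal of Akr1b7 was dim, with a mean of 4.51. Close relatives of this gene share sequence with it, and cross-hybridisation was not tested. Cyp11b1, the enzyme that finishes corticosterone, overlapped between the groups, with 5.87, 5.86, 5.14 and 4.87 on DBP arrays 1 to 4, against 5.40, 5.22, 5.62 and 5.87 on vehicle arrays 1 to 4. It differed from vehicle by 0.34 on DBP arrays 1 and 2 and by -0.52 on DBP arrays 3 and 4, where Mrap gave -0.61 and -0.60. Cyp21a1, the 21-hydroxylase, differed by 0.03 (adjusted p = 0.892), Ccn3 by 0.28 (adjusted p = 0.121) and Hsd3b1 by 0.17 (adjusted p = 0.163). The list's median was 0.04, and 4 of the 13 were higher and 0 lower at an unadjusted p under 0.05, where 11.3% and 7.84% of all genes were.

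Leydig cells mark the testis interstitium, and their genes had mean log2 signals of 4.81 to 12.62. The brightest was Cyp17a1, an enzyme of androgen synthesis, with 12.60 in the DBP group and 12.64 in the vehicle group. At an unadjusted p under 0.05, 3 of 12 Leydig cell genes were higher and 4 lower, where 11.3% and 7.84% of all genes were. The median difference of the 12 was 0.00, and 0 of them passed limma's test, where 1.22% of all genes did. That count of 0 depends on the settings: Insl3 was called in 5 alternatives, among them array weights (adjusted p = 0.0285), Vsnl1 in 2, and Prlr, the prolactin receptor, and Hsd3b1 in 1 each. Insl3, a hormone of fetal Leydig cells, had 11.52 in the DBP group and 11.86 in the vehicle group, a difference of -0.34 (adjusted p = 0.0732). Vsnl1, a calcium sensor, differed by -0.70 (adjusted p = 0.0888) and Hsd11b1 by 0.28 (adjusted p = 0.122). The part of Leydig cells in the Mrap values was not tested.

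**Figure D3:**
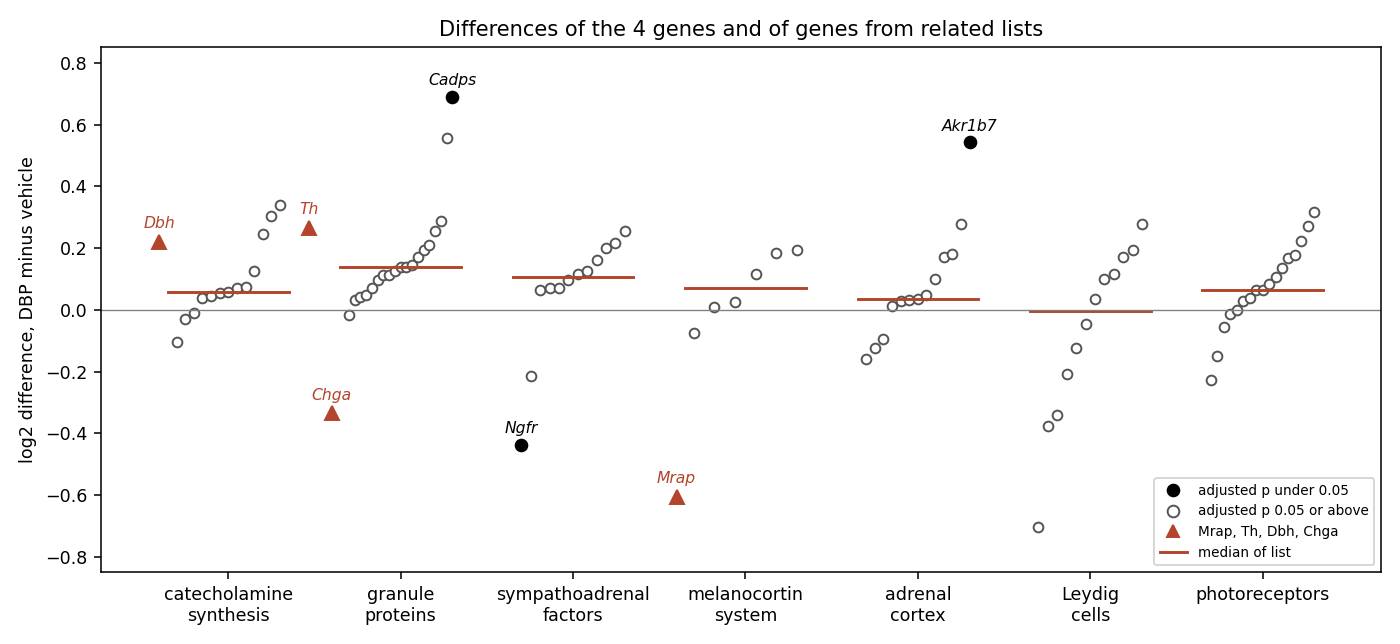
Log2 difference, DBP minus vehicle (vertical axis), of the measured genes of 7 lists (horizontal axis), each gene at its brightest probe set. Filled circles are genes past limma's adjusted p of 0.05, open circles the others, lines the list medians and triangles the 4 genes placed beside their lists. Cadps, Akr1b7 and Ngfr are filled. The 4 genes were chosen by the quantity on the vertical axis, so their place relative to the lists is not a result.

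The name adrenal-type was set against genes that define adrenal cells. The table gives no detection calls, and the brightness of different probe sets cannot be compared as transcript level. Photoreceptor genes of the retina were therefore used only to show where dim signal lies, and 17 of them had mean log2 signals of 2.83 to 8.67 with a median of 4.36. Of these 17 probe sets, 1 was brighter than that of Mrap, 3 were brighter than those of Th and Chga, and 5 were brighter than that of Dbh. Among genes of the adrenal lists, 10 of the 17 were brighter than Slc18a1 and Chgb, 9 than Scg2 and Slc6a2, and 7 than Cyp21a1. Of the called list genes, Cadps had 9 brighter, Akr1b7 had 7 and Ngfr had 1. Fewer were brighter than other list genes, with 5 above Slc18a2, 4 above Phox2a and 3 above Pnmt and Cyp11b1. Only 1 was brighter than Ddc, and 0 were brighter than Nr5a1, which Leydig cells also make. These are some of the list genes and not all. The top of the photoreceptor range was 1 probe set, that of Cnga1. Without detection calls the arrays do not tell whether adrenal cells were present, and the 4 genes are named by their symbols here for that reason. Of the 17 photoreceptor genes 0 passed limma's test, where 1.22% of all genes did. At an unadjusted p under 0.05, 2 were higher and 1 lower, where 11.3% and 7.84% of all genes were. Of the 17 photoreceptor differences 12 were above 0 and 5 at or below it, with a median of 0.07. The 3 with the smallest p were Rcvrn (0.27), Pde6g (0.32) and Cnga1 (-0.23).

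Genes with the most similar pattern were sought by Pearson's r of log2 signals over the 8 arrays, among the other 14216 genes. For Th they were Ctns (0.987), C1qtnf4 (0.984) and Adora2a (0.978), and for Dbh Coq8b (0.985), Ap1m1 (0.976) and Pou2af1 (0.974). For Chga they were LOC102555913 (0.964), Cdh22 (0.956) and Ctnnbip1 (0.954), and for Mrap Fam136a (0.984), Mthfd1 (0.98) and U2af1 (0.978). None of these genes was in a list above. With 8 arrays such values are common, since 116 genes were above 0.9 with Th, 42 with Dbh, 37 with Chga and 92 with Mrap. After the group means were subtracted the nearest were Dio2, Rims3 and Sdk1 for Th (0.982, 0.967 and 0.965) and Sox3, Coq8b and Hapln3 for Dbh (0.992, 0.978 and 0.975). They were Polr1f, Plekhn1 and Guk1 for Chga (0.997, 0.993 and 0.993) and Rpain, Mrgprx3 and Lck for Mrap (0.982, 0.982 and 0.978). Only Coq8b came up by both measures, and none of the 4 genes was among the nearest of another.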

How the data were processed

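The deposited values are log2 signals per probe set and array, made by the authors with RMA per the submitters' processing notes (its version: not given in the sources used here). Raw array files were not used here. Of 31099 probe sets 57 Affymetrix controls were set aside. The platform annotation gave 20826 probe sets 1 symbol, 436 several and 9780 none. A gene was represented by its brightest such probe set.

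DBP and vehicle were compared over all 31042 probe sets with limma (version 3.58.1, R 4.3.3; lmFit and eBayes), two-sided, with Benjamini-Hochberg adjustment and a threshold of 0.05. Each p comes from that fit, except where an alternative is named. On simulated arrays of 31042 probe sets for DBP against vehicle (seed 1) 96 of 100 probe sets given a log2 difference of 1 were called, as were 64 of 100 given 0.5, beside 6 false calls. Tables and figures were made with Python 3.11.15, pandas 2.3.3 and matplotlib 3.10.9.

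The 4 genes and the lists were chosen with earlier results of these data known. The genes named were the 4, each called list gene, the 3 lowest unadjusted p-values of each list, a set of adrenal genes and the nearest patterns. Promoters are RefSeq's (GRCr8). Alternatives covered scaling, prior, filters, the replicate number, RNA integrity, array weights and left-out arrays.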

Additional observations from a re-analysis of the deposited data

Results flagged for a closer look

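Within groups of 4 arrays, 7 of 244 gene-by-group sets held an array far from the other 3 by Dixon's criterion, which chance flags in about 1 of 20 such groups. None of the 7 was a value of Mrap, Th, Dbh or Chga. Slc18a2 was 5.52 on DBP array 4, against 5.05 to 5.12 on the other DBP arrays. Mrap2 was 4.57 on DBP array 1, against 4.62 to 4.63, and Syt1, a granule calcium sensor, was 4.02 on DBP array 4, against 4.21 to 4.24. Rp1, a photoreceptor gene, was 2.87 on DBP array 1, against 2.82 on the other DBP arrays. Among vehicle arrays, Gata2 was 6.51 on array 2, against 5.92 to 5.98, Penk was 8.57 on array 2, against 8.43 to 8.45, and Nr0b1 was 9.55 on array 3, against 9.46. Gata2, Penk, Syt1, Nr0b1 and Rp1 are named only for these values.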

How the results depend on the processing

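Mrap, Th, Dbh and Chga kept their sign in the 14 alternatives that can move a difference of means; the prior, the filters, the block and the mean over probe sets leave it as it is by construction, and both filters left out Dbh. Mrap ranged from -0.70 to -0.51, Th from 0.20 to 0.30, Dbh from 0.16 to 0.27 and Chga from -0.53 (DBP replicates 1 and 2 against vehicle) to -0.20 (without DBP replicate 2). Without DBP replicate 1, 2, 3 and 4 the Chga difference was -0.34, -0.20, -0.44 and -0.36. The count of called probe sets, 331, was 82 (without vehicle replicate 3) to 606 (without DBP replicate 2) when 1 array was left out, and 577 for DBP replicates 1 and 2 against vehicle. With the replicate number as a block it was 175, of which 151 were among the 331, and the deviations of same-numbered arrays had correlations of 0.11, -0.08, 0.10 and -0.02. Best correlation was with the own number for 4 of 8 arrays. These checks do not settle whether same-numbered samples belong together. The labels do not say that the numbers pair samples, and the main fit left pairing out. The catecholamine list had 1 called gene, Gchfr, after shifting arrays to the same median, with only signals above 5, with the mean over probe sets or without DBP replicate 2, and 0 in all other leave-one-out fits. The filters at 5 and at the median gave 0 called granule genes and 0 called cortex genes, because they left out Cadps and Akr1b7. The trend and robust prior gave 2 called cortex genes, Hsd3b1 being the added one. Cadps, Ngfr and Akr1b7 kept their calls in each alternative that held them, with adjusted p up to 0.0289, 0.0404 and 0.0324, and Cadps ranged from 0.40 (the mean over its probe sets) to 0.73. Among list genes with an unadjusted p under 0.05 that were not called, Insl3 was called in 5 alternatives (adjusted p 0.0211 to 0.0499), Vsnl1 in 2 (0.0221 and 0.0391), Prlr in 1 (0.0299) and Erbb3 in 1 (0.0476). Cyclic loess was chosen after seeing the data. The number of arrays and the lack of detection calls limit what can be said of dim genes such as Dbh.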

Other observations

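Sympathetic neurons also make Th and Dbh, and Schwann cells ensheath their nerves, so markers of both were examined. Of 17 measured genes 0 passed limma's test, where 1.22% of all genes did. At an unadjusted p under 0.05, 4 were higher and 1 lower, where 11.3% and 7.84% of all genes were. The median log2 difference of the 17 was 0.12, being 0.04 on DBP arrays 1 and 2 and 0.21 on DBP arrays 3 and 4. Erbb3, a neuregulin receptor of Schwann cells and other cell types, differed by 0.47 (adjusted p = 0.102), Stmn2, a neuronal microtubule protein, by 0.33 (adjusted p = 0.182) and S100b, a glial calcium-binding protein, by -0.27 (adjusted p = 0.163). Their mean log2 signal was 6.05 to 6.21 on DBP arrays and 5.98 to 6.02 on vehicle arrays, and its part in the Th and Dbh values was not tested.

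Fat cells are also a known source of Mrap, not necessarily the only one outside the adrenal cortex. Of 13 measured fat cell genes 0 passed limma's test, where 1.22% of all genes did. At an unadjusted p under 0.05, 3 were higher and 0 lower, where 11.3% and 7.84% of all genes were. The median difference of the 13 was 0.11, being 0.11 on DBP arrays 1 and 2 and 0.12 on DBP arrays 3 and 4. Their median brightness was 4.7, and all probe sets between 4 and 5 had medians of 0.02 and 0.11 in these pairs. Fabp4, a fatty acid carrier, differed by 0.44 (adjusted p = 0.143), Lep, the leptin gene, by 0.33 (adjusted p = 0.137), Slc2a4, the insulin-regulated glucose transporter, by 0.19 (adjusted p = 0.193) and Adipoq, the adiponectin gene, by 0.12 (adjusted p = 0.668). The dimmer probe set of Slc2a4 went the other way, by -0.087. The mean log2 signal of the 13 was 5.0 to 5.18 on DBP arrays and 4.91 to 4.98 on vehicle arrays. Mrap was chosen by its difference and these genes were not, so its direction is not set against theirs. The part of fat cells in the Mrap values was not tested.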
